A study of Homo sapiens with 6 samples.

Results

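Genes that are induced when oxygen is low, and that act outside sugar breakdown, were read on arrays of BT474 cells carrying 1 of 2 variants of the long non-coding RNA NR2F1-AS1. The list held 32 genes, taken as every probe whose gene name in the array files equals a member, among 43317 gene names on the array. All 32 were on the array, with 50 probes. BT474 is an estrogen receptor-positive, HER2-positive human breast cancer line. Control BT474 cells had been transfected with the empty pcDNA3.1 plasmid, BT474-Var1 cells with pcDNA3.1 carrying NR2F1-AS1 variant 1, and BT474-Var4 cells with pcDNA3.1 carrying variant 4, and each group was hybridised to 2 one-color arrays labelled A and B. Every group was grown in the same serum-containing medium, with no low-oxygen group among the 6 arrays. The study describes antibiotic selection of the transfected cells and surviving colonies of the variant cells. Per its methods, each variant sits in a different version of the plasmid, and which empty version the arrayed Control cells carried is not given in the sources used here. Nothing in the labels says whether A and B were separate cultures, so the p-values below measure the spread between these arrays, which may be technical.

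When oxygen falls, the alpha subunits of the hypoxia-inducible factors (HIF) escape hydroxylation by the EGLN enzymes and degradation through VHL, pair with ARNT and bind short DNA elements near their target genes. Besides glycolytic enzymes, the targets include carbonic anhydrases that control pH, blood vessel signals such as VEGFA, mitochondrial proteins that mark mitochondria for removal, enzymes that hydroxylate and cross-link collagen, and oxygen-dependent histone demethylases. In breast tumors CA9 is a widely used mark of poorly oxygenated regions. Many of the genes also answer to growth factor, steroid or stress signals.

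Because the members are known for a shared element, the 250 bases before the start site were searched for its core, ACGTG or GCGTG, on both strands (CACGT and CACGC on the strand printed). Overlapping matches, such as the palindrome CACGTG which reads the same on both strands, were counted as 1 site. The promoter table (RefSeq, GRCh38.p14) gave sequences for 25 members, and VEGFA, RAB20, FUT11, NDRG1, BNIP3L, LOXL2 and ZNF395 are not shown. At least 1 site was found for 22 of the 25 (88% with any of their promoters), against 47.4% of 27305 gene symbols and 43.2% of 35116 promoters in the same table. Base composition was not matched, and a match is a description of letters rather than of binding. The promoters below were picked with the values of their members known, so a site position set beside a change is no test. The 2 carbonic anhydrases and the 2 collagen prolyl hydroxylase subunits are set beside each other because each pair differed in opposite ways between the variants. Against Control, both subunits were higher in BT474-Var4 cells. Capitals mark the core sites, and each sequence reads 5′ to 3′ toward the start site.
CA9 (chr9:35673678-35673927, plus strand): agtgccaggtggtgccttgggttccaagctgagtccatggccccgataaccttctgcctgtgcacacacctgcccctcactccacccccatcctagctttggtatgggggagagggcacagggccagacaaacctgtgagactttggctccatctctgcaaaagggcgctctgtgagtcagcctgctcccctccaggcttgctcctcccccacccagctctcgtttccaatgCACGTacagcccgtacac
CA12 (chr15:63381847-63382096, minus strand): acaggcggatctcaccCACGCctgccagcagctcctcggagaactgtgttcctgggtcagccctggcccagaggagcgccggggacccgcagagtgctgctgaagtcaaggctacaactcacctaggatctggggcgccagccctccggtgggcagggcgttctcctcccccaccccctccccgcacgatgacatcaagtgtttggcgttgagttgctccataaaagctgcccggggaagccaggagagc
ADM (chr11:10304823-10305072, plus strand): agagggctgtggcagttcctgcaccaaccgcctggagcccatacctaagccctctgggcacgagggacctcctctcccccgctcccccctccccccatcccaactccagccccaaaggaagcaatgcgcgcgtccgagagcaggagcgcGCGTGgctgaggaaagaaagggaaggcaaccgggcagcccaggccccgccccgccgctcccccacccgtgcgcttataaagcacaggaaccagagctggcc
BNIP3 (chr10:131981924-131982173, minus strand): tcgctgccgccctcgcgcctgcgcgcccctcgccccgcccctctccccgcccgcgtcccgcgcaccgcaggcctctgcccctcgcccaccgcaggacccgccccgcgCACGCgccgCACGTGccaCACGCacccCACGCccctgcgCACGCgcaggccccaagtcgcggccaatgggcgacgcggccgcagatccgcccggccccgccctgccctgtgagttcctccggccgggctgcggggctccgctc
ANKRD37 (chr4:185396591-185396840, plus strand): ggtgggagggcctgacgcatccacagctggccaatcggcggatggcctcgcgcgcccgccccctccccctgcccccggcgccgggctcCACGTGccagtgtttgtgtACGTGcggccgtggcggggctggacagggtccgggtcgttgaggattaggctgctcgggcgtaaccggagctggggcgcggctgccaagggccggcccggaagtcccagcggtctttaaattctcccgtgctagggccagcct
P4HA1 (chr10:73096867-73097116, minus strand): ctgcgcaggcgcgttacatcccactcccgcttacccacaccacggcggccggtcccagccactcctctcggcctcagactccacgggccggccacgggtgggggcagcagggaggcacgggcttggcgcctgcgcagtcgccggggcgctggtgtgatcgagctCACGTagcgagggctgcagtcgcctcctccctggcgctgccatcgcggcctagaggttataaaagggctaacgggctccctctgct
P4HA2 (chr5:132227092-132227341, minus strand): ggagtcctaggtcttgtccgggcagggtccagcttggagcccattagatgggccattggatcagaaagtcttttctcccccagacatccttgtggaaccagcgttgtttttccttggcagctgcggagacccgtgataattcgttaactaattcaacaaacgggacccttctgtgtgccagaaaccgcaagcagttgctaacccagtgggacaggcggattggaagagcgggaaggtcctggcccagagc
The site of CA9 began 18 bases, that of P4HA1 86 bases and that of ADM 101 bases before the start site. BNIP3 held 5 sites between 143 and 104 bases before it, and ANKRD37 held 2, at 162 and 143. CA12 had its only site 234 bases upstream, and these letters are not in the 250 bases of P4HA2, RORA or TMEM45A. TMEM45A was nevertheless called higher in BT474-Var1 cells. Among members not printed, PLOD1, called higher than Control in BT474-Var4 but not in BT474-Var1 cells, held sites at 68 and 25. WSB1, which passed no test, held sites at 101 and 58. A link between sites and changes was not tested.

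Values are log2 intensities relative to the array's own 75th percentile, so that 1 unit is a 2-fold difference, and a level of 1 probe says nothing of the level of another. A gene was read by its brightest tested probe, and it was called where limma's moderated test gave an adjusted p under 0.05 over all 31858 tested probes. Tested probes were those whose signal stood well above background on each array of 1 group or more. This kept 24619 gene names and 31 of the 32 members. Only LOX was not tested, and 30 members were well above background on all 6 arrays. CA9 passed only through the BT474-Var1 arrays, so it had to differ. Replicates correlated at r = 0.98 to 0.987 over all probes, which are not independent, with an SD between replicates of 0.20 to 0.25 on the log2 scale. The transfected gene matched the labels. The 2 NR2F1-AS1 probes at positions 92745544 and 92746995 (hg19, chromosome 5) read -0.51 to -0.19 on the BT474-Var1 arrays and -6.62 to -3.61 elsewhere. The probe at 92877924 read 1.67 and 1.50 on the BT474-Var4 arrays and -6.42 to -4.25 elsewhere, and the probe at 92889467 read 3.01 and 3.02 in BT474-Var4, -1.69 and -1.52 in BT474-Var1 and -5.76 and -4.16 in Control cells. All 12 markers of luminal HER2-positive epithelium were well above background on all 6 arrays. So were PTPRC and CD14 among the leukocyte markers, so this flag alone does not show identity. None of the 3 basal markers was above background on all 6. By the position codes in the file headers, both BT474-Var1 arrays lay in another line of the slide than the other 4, so that this position and the variant cannot be told apart.

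Most hypoxia targets outside glycolysis had a higher level in BT474-Var1 cells than in the Control. Of the 31 measured, 24 were higher (77.4%) and 1 was lower, while 6 did not pass the test. Among all 24619 gene names, 14.2% were higher and 20.7% lower in this comparison. The members had been chosen with earlier results of these data known, so these shares describe them and are no independent test. At 2-fold or more, 12 members were higher, against 2.86% of all gene names, and 0 were lower, against 1.14% (limma; 1 was lower at an unadjusted p under 0.05). The median log2 fold change of the measured members was 0.69, beside -0.05 over all gene names. The 2 BT474-Var1 values lay above both Control values for 28 members and below them for 3, where 31% and 41.3% of all gene names were so separated. Of the 24 higher calls, 17 held when each of the 6 arrays was left out in turn. The 7 that did not were CA9, EFNA3, INSIG2, KDM4B, KDM4C, RORA and TMEM45A. With all dim probes tested as well, these 7 were lost and so were EFNA1, PLOD2 and ZNF395 (adjusted p 0.0627, 0.051 and 0.0527), which left 14, against 2.55% of all gene names. Without CA9, 23 of 30 members were higher, 11 of them 2-fold. With normexp background correction 9 were 2-fold higher and the median was 0.43.

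**Figure D1:**
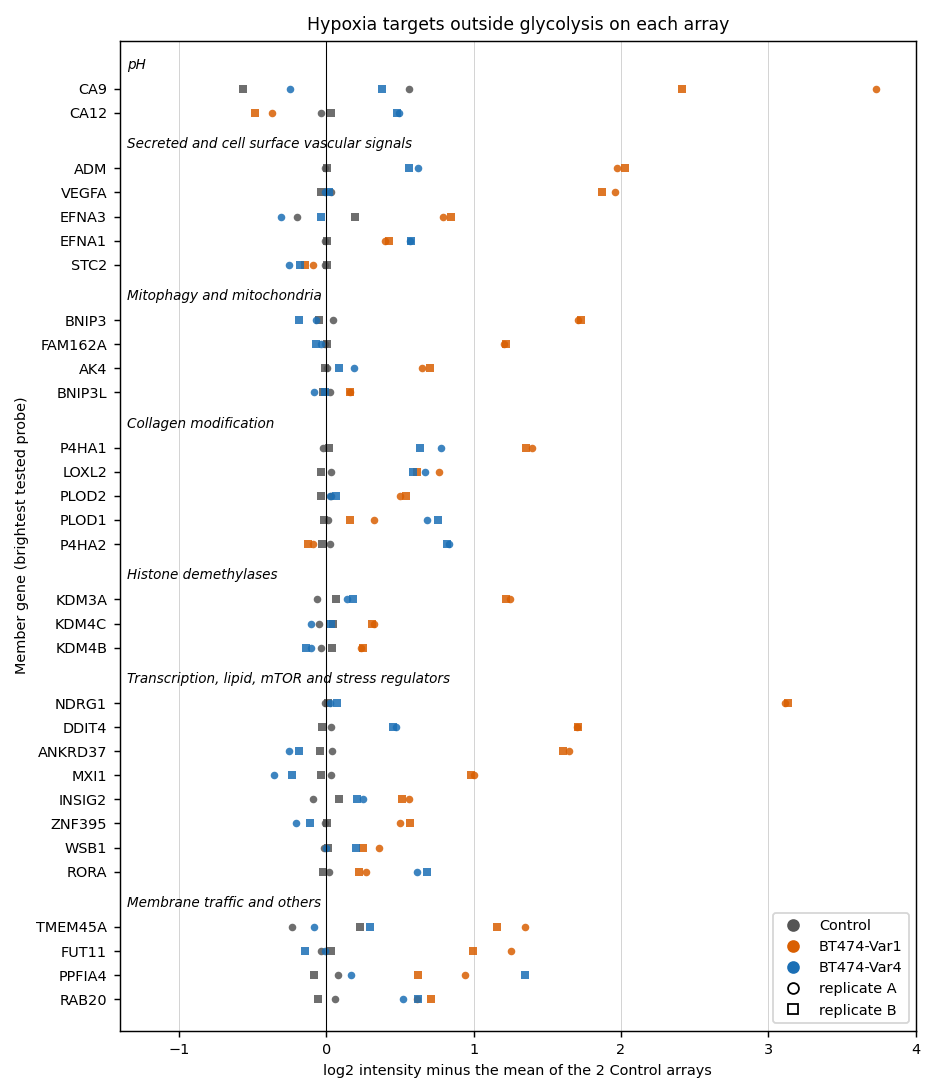
Log2 intensity of each measured member on each of the 6 arrays, minus the mean of the 2 Control arrays (x axis), with genes in rows grouped by function (y axis; brightest tested probe; circles are replicate A and squares replicate B). The BT474-Var1 points lie right of both Control points for 28 of 31 members, CA9 was well above background on the BT474-Var1 arrays only, and no BT474-Var4 point lies 1 unit or more right of the Control mean except that of 1 PPFIA4 array.

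In BT474-Var4 cells fewer members differed from Control and the differences were smaller. There 10 were higher, against 10.2% of all gene names, and 1 was lower, against 14.6%. At 2-fold or more, 0 members were called in either direction (limma), beside 1.69% of all gene names higher and 1.54% lower. At an unadjusted p under 0.05, 11 members were higher and 3 lower. These were 14 of 31, where 10063 of all 24619 gene names passed that threshold in either direction. The 10 higher genes were CA12, ADM, EFNA1, P4HA1, P4HA2, PLOD1, LOXL2, DDIT4, RORA and RAB20, with log2 fold changes between 0.46 and 0.83. The lower gene was MXI1. The median of the 31 was 0.10, beside -0.08 over all gene names. The 2 groups did not overlap for 15 members that read higher and 7 that read lower in BT474-Var4, where 26.3% and 43.1% of all gene names did not. The count rested on the Control arrays: without Control A 3 members were higher (2.73% of all gene names), without Control B 4 (2.73%). EFNA1, P4HA2 and RORA were higher with any 1 of the 6 arrays left out. With all dim probes tested as well, P4HA2 alone was called (adjusted p = 0.0425), against 0.845% of all gene names, and the other 10 calls were lost, those of EFNA1 and RORA at adjusted p 0.0599 and 0.0566.

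Set against BT474-Var1 directly, BT474-Var4 cells were lower on 21 members and higher on 4, while 21% and 20.9% of all gene names were lower and higher. At 2-fold or more, 12 were lower (11 with CA9 at its bound), against 4.62%, and 0 higher, against 2.33% (limma; 5 were higher at an unadjusted p under 0.05). The median difference was -0.54, beside -0.03 over all gene names. Both BT474-Var4 values lay below both BT474-Var1 values for 23 members and above for 5, while 39.5% and 35.9% of all gene names were so separated. The 4 higher genes were CA12, P4HA2, PLOD1 and RORA. With any 1 array left out, 15 of the 21 lower calls held. BNIP3L, CA9, EFNA3, INSIG2, KDM4C and TMEM45A were lost without at least 1 array, and among the higher calls PLOD1 was lost without BT474-Var4 B (adjusted p = 0.0561). Without CA9, 20 of 30 members were lower, 11 of them 2-fold. With normexp background correction 7 were 2-fold lower and the median was -0.346. In all, 16 of the 31 members (51.6%; 15 without CA9) were higher in BT474-Var1 than in both other groups with no call between BT474-Var4 and Control, beside 7.15% of all gene names. This does not show that those 2 groups had the same level. The 16 include CA9, EFNA3, INSIG2, KDM4B, KDM4C and TMEM45A, whose higher calls against Control did not hold with each array left out. A second KDM4B probe was called the other way.

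**Figure D2:**
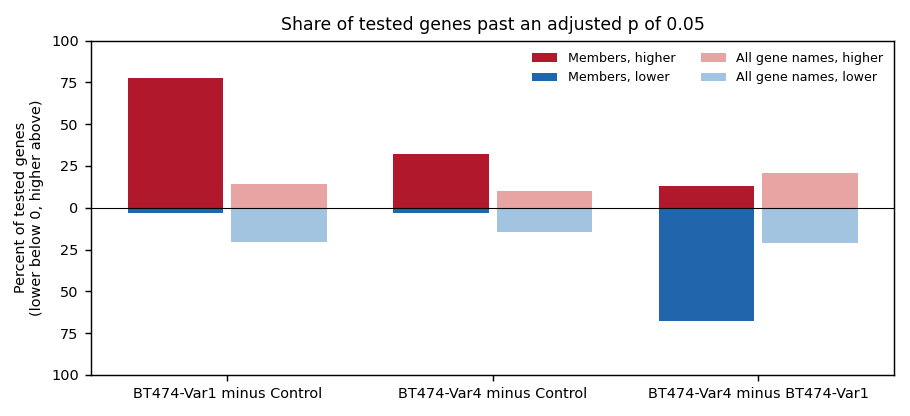
Percent of tested genes (y axis, higher above 0 and lower below it) called at an adjusted p under 0.05 in each of the 3 comparisons (x axis), for the 31 measured members (dark bars) and all 24619 gene names (pale bars). Members were higher in 77.4% of cases in BT474-Var1 minus Control, where the share of all gene names was 14.2%, and lower in 67.7% in BT474-Var4 minus BT474-Var1, where it was 21%. The members were chosen with earlier results of these data known.

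The 2 carbonic anhydrases, membrane enzymes that turn CO2 into bicarbonate and protons at the cell surface, moved in opposite directions. CA9 read -5.50 and -6.62 in Control, -2.33 and -3.65 in BT474-Var1 and -6.30 and -5.68 in BT474-Var4 cells. It was well above background on the BT474-Var1 arrays only, which do not overlap with the others. As CA9 was tested only through BT474-Var1, its p-values are no independent support. Counted from the dimmest signal that was still above background, CA9 in BT474-Var1 cells was at least 2.63-fold higher than in Control (adjusted p = 0.023). By the same count it was at least 1.89-fold higher than in BT474-Var4 cells (adjusted p = 0.0206). The former call was lost without Control A, Control B or BT474-Var1 A (adjusted p 0.0538 to 0.0903), and the latter without BT474-Var1 A or either BT474-Var4 array (0.0622 to 0.0873). Both bounds hold for this processing only. Over the alternative settings the CA9 log2 fold change ran from 0.426 to 3.729 for BT474-Var1 against Control. For BT474-Var4 minus BT474-Var1 it ran from -3.662 to -0.434. The BT474-Var1 B value of -3.65 lay below the dimmest well-above-background signal of BT474-Var4 B, -3.605. CA12, which estrogen receptor-positive breast cells express, read 1.94 and 2.01 in Control, 1.61 and 1.49 in BT474-Var1 and 2.47 and 2.46 in BT474-Var4 cells. The 3 groups of CA12 do not overlap, with BT474-Var4 highest and BT474-Var1 lowest. Among the members CA12 alone was called lower in BT474-Var1 against Control (-0.43 on the log2 scale, SE 0.07, adjusted p = 0.0122) and was higher in BT474-Var4 (0.49, adjusted p = 0.0134). The first call was lost without either Control array (adjusted p 0.0556 and 0.0669), and the second without either Control or either BT474-Var4 array (0.0603 to 0.0751). The direct difference of the variants, 0.91 with BT474-Var4 higher (adjusted p = 0.00213), held with each array left out.

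Of the 5 vascular signals, 4 were higher in BT474-Var1 cells (80%, against 14.2% of all gene names), and STC2 was not. VEGFA, the main growth factor of blood vessels, read 2.10 and 2.03 in Control, 4.02 and 3.93 in BT474-Var1 and 2.06 and 2.08 in BT474-Var4 cells. Both BT474-Var1 values were above all others, and the BT474-Var4 values lay within the range of the Control values. The log2 fold change was 1.91 in BT474-Var1 against Control (3.77-fold, SE 0.06, adjusted p = 0.00209), with a direct difference, BT474-Var4 minus BT474-Var1, of -1.90 (adjusted p = 0.00118). For BT474-Var4 against Control it was 0.01 (95% interval -0.15 to 0.17, adjusted p = 0.933). A second VEGFA probe gave 1.47 (adjusted p = 0.00269) and -0.13 (adjusted p = 0.232) for the 2 variants against Control.

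ADM, which encodes adrenomedullin, a secreted peptide that widens vessels, read 2.88 and 2.90 in Control, 4.87 and 4.92 in BT474-Var1 and 3.52 and 3.45 in BT474-Var4 cells. Its 3 groups were separate, with BT474-Var4 between the others. ADM was 4.00-fold higher in BT474-Var1 (log2 fold change 2.001, SE 0.05, adjusted p = 0.0018) and 1.51-fold higher in BT474-Var4 (0.59, adjusted p = 0.00639), both against Control, with a direct difference of -1.41 (adjusted p = 0.0012). Without Control A the call of BT474-Var4 was lost (adjusted p = 0.0501). EFNA1 and EFNA3 are membrane-bound ligands of Eph receptors. EFNA1 was higher in both variants, by 0.41 (BT474-Var1, adjusted p = 0.00683) and 0.57 (BT474-Var4, adjusted p = 0.00557) against Control, and the variants did not differ beyond the threshold (0.16, adjusted p = 0.0549). EFNA3 was higher in BT474-Var1 alone of the comparisons with Control (0.82, adjusted p = 0.0244, and -0.17, adjusted p = 0.493, in BT474-Var4), with a direct difference of -0.99 (adjusted p = 0.0129). The EFNA3 call against Control was lost without Control A or either BT474-Var1 array (adjusted p 0.0735 to 0.0962), and the direct one without either BT474-Var1 array or BT474-Var4 A (0.0544 to 0.0594). STC2, a secreted glycoprotein that estrogen also induces, passed no test, with a log2 fold change of -0.11 for BT474-Var1 (adjusted p = 0.185) and -0.22 for BT474-Var4 cells (adjusted p = 0.0556). Among 5 endothelial markers CDH5 and VWF were well above background on all 6 arrays and KDR and TEK on none, and their summed log2 level was 1.40 to 1.49 in Control, 0.85 to 0.95 in BT474-Var1 and 1.31 to 1.39 in BT474-Var4 cells. Its part in these results was not tested.

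Among the mitochondrial members, BNIP3, FAM162A and AK4 were higher in BT474-Var1 cells (75% of the 4, against 14.2% of all gene names). None of the 4 passed the test in BT474-Var4 against Control (limma, and 0 at an unadjusted p under 0.05). There 10.2% of all gene names were higher and 14.6% lower. BNIP3, a receptor on the outer membrane that brings mitochondria to the autophagy machinery, read 3.74 and 3.64 in Control, 5.40 and 5.42 in BT474-Var1 and 3.62 and 3.50 in BT474-Var4 cells. Both BT474-Var1 values stood above all others, and both BT474-Var4 values lay just under both Control values. In BT474-Var1 cells BNIP3 was 3.29-fold the Control level (log2 fold change 1.72, SE 0.07, adjusted p = 0.00238), and the direct difference was -1.85 (adjusted p = 0.0012). FAM162A, an inner-membrane protein, read 5.16 and 5.18 in Control, 6.37 and 6.38 in BT474-Var1 and 5.13 and 5.10 in BT474-Var4 cells. The rise of 1.21 (2.32-fold, SE 0.05, adjusted p = 0.00235) and the direct difference of -1.26 (adjusted p = 0.0012) were far larger than the spread within groups. AK4, the adenylate kinase of the mitochondrial matrix, was higher in BT474-Var1 by 0.68 (adjusted p = 0.0049), and all 3 of its probes were called.

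BNIP3L, the relative of BNIP3 also known as NIX, depended on the probe. Its brightest probe (chromosome 8, 26254988 to 26255047 in hg19) gave 0.16 (adjusted p = 0.085) in BT474-Var1 against Control, while the others gave 1.09 (adjusted p = 0.00346; 26270286 to 26270345) and 0.81 (adjusted p = 0.00467; 26252758 to 26252817). Between the variants all 3 were lower in BT474-Var4, by 0.20 (adjusted p = 0.0425), 0.78 (adjusted p = 0.0032) and 0.79 (adjusted p = 0.00308) on the log2 scale, and the first of these calls was lost without any 1 of the 6 arrays (adjusted p 0.0751 to 0.144). The BNIP3L probe at 26270286 was also called higher in BT474-Var4 against Control (0.31, adjusted p = 0.0419).

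The collagen-modifying enzymes were the group in which BT474-Var4 cells had most calls against Control, with 4 of 5 measured members higher, against 10.2% of all gene names, beside 3 of 5 in BT474-Var1, against 14.2%. P4HA1 and P4HA2 are alternative catalytic subunits of the enzyme that hydroxylates prolines of collagen. P4HA1 read 1.96 and 2.001 in Control, 3.37 and 3.33 in BT474-Var1 and 2.76 and 2.62 in BT474-Var4 cells, so the groups were separate and BT474-Var1 highest. It was 2.59-fold higher in BT474-Var1 (log2 fold change 1.37, SE 0.07, adjusted p = 0.0029) and 1.64-fold in BT474-Var4 (0.71, adjusted p = 0.00705), with a direct difference of -0.66 (adjusted p = 0.00406). P4HA2 read 4.09 and 4.04 in Control, 3.97 and 3.94 in BT474-Var1 and 4.90 and 4.89 in BT474-Var4 cells, so that only the BT474-Var4 values stood above Control. In BT474-Var4 cells P4HA2 was 1.78-fold higher than in Control (0.83, SE 0.05, adjusted p = 0.00373) and 1.92-fold higher than in BT474-Var1 cells (0.94, adjusted p = 0.00143), while BT474-Var1 minus Control was -0.11 (adjusted p = 0.169). The other P4HA2 probes gave 0.75 (adjusted p = 0.00508) and 1.19 (adjusted p = 0.0174) in BT474-Var4, and -0.37 (adjusted p = 0.0123) and -0.24 (adjusted p = 0.366) in BT474-Var1.

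PLOD1 and PLOD2 hydroxylate lysines of collagen. PLOD1 was higher in BT474-Var4 (0.72, adjusted p = 0.00874) and gave 0.24 (adjusted p = 0.0732) in BT474-Var1, with a direct difference of 0.48 (adjusted p = 0.0116). A dimmer PLOD1 probe did not pass against Control, at 0.83 in BT474-Var4 (adjusted p = 0.0513) and 0.002 in BT474-Var1 (adjusted p = 0.994). Its direct difference was 0.83 (adjusted p = 0.0354). PLOD2 was higher in BT474-Var1 (0.52, adjusted p = 0.00591) and gave 0.05 (adjusted p = 0.56) in BT474-Var4, with a direct difference of -0.47 (adjusted p = 0.00527). LOXL2, which cross-links collagen and elastin, was higher in both, by 0.69 (adjusted p = 0.00641) and 0.63 (adjusted p = 0.0111). Without Control A or Control B the BT474-Var4 calls of P4HA1, PLOD1 and LOXL2 were lost (adjusted p 0.0502 to 0.0684), as was that of LOXL2 without BT474-Var4 A (0.0536). LOX, the related lysyl oxidase, read -4.40 and -4.30 in Control, -4.00 and -3.52 in BT474-Var1 and -5.49 and -5.62 in BT474-Var4 cells, and was well above background on 1 Control and 1 BT474-Var1 array only. The summed level of 6 fibroblast markers, in log2 of the summed intensity, was 1.65 to 1.66 in Control, 1.88 to 1.93 in BT474-Var1 and 2.47 to 2.51 in BT474-Var4 cells. Of these, COL1A1 and PDGFRB were well above background on all 6 arrays and COL1A2, COL3A1 and LUM on none, and the part of these transcripts in the collagen result was not tested.

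All 3 histone demethylases were higher in BT474-Var1 cells on their brightest probes, against 14.2% of all gene names. KDM3A, which removes methyl groups from lysine 9 of histone H3 and uses oxygen to do so, read 0.62 and 0.75 in Control, 1.93 and 1.91 in BT474-Var1 and 0.83 and 0.87 in BT474-Var4 cells. The BT474-Var4 values lay just above Control and about 1 unit below BT474-Var1. Against Control, KDM3A was 2.35-fold higher in BT474-Var1 (1.23, SE 0.07, adjusted p = 0.00294), and the direct difference was -1.07 (adjusted p = 0.00167). BT474-Var4 minus Control was 0.16 (adjusted p = 0.144). KDM4B and KDM4C, which act on methylated lysines of histone H3 as well, changed by 0.24 (adjusted p = 0.0296) and 0.32 (adjusted p = 0.0311) in BT474-Var1, and these calls were lost without either Control or either BT474-Var1 array (adjusted p 0.0773 to 0.133), and that of KDM4B also without either BT474-Var4 array (0.0558). Probes of these genes did not move alike. A second KDM4B probe (chromosome 19, 5082448 to 5082507 in hg19; the brightest lies at 5153547 to 5153606) was lower in BT474-Var1 (-0.75, adjusted p = 0.0111), and with the mean of both probes the difference of KDM4B was -0.25. A second KDM4C probe (chromosome 9, 6720906 to 6720965) rose by 1.53 (adjusted p = 0.00346) in BT474-Var1 and fell by 0.76 (adjusted p = 0.0133) in BT474-Var4 cells, and another (7077209 to 7077268) rose by 0.73 (adjusted p = 0.0388) in BT474-Var1. The brightest KDM4C probe lies at 7175334 to 7175393, and its direct difference of -0.35 (adjusted p = 0.0206) was lost without either BT474-Var1 array or BT474-Var4 A (adjusted p 0.0718 to 0.082). Of the remaining KDM4C probes, 2 were not above background on any array.

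**Figure D3:**
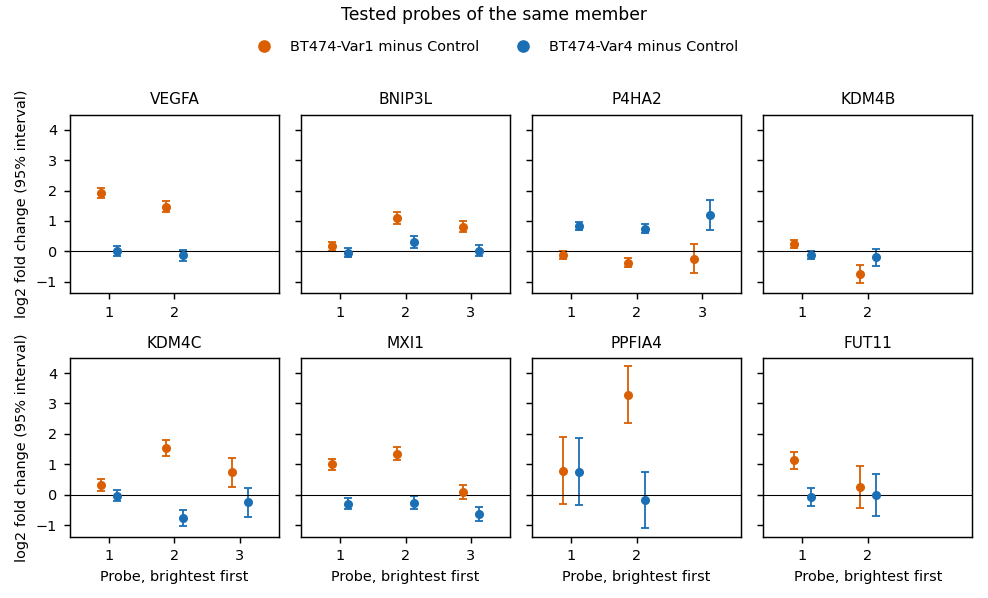
Log2 fold change against Control (y axis; bars are 95% intervals from limma) of every tested probe of 8 members, numbered from the brightest (x axis), in BT474-Var1 (orange) and BT474-Var4 cells (blue). The 2 probes of KDM4B have opposite signs in BT474-Var1 (0.24 and -0.75), while all 3 of P4HA2 keep their sign in each variant. Both probes of VEGFA rise in BT474-Var1 (1.91 and 1.47), and neither was called in BT474-Var4 (0.01 and -0.13).

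The transcription, lipid, mTOR and stress regulators held the largest fitted change on a brightest probe. NDRG1, a stress-responsive cytoplasmic protein that restrains cell motility in several cancers, read 4.38 and 4.40 in Control, 7.51 and 7.53 in BT474-Var1 and 4.42 and 4.46 in BT474-Var4 cells. Only the BT474-Var1 arrays stood apart, and the arrays of a group differed by far less than the groups did. The log2 fold change was 3.12 (8.72-fold, SE 0.05, adjusted p = 0.000842), that of BT474-Var4 was 0.05 (adjusted p = 0.517), and the direct difference was -3.08 (adjusted p = 0.000533). DDIT4, also known as REDD1, an inhibitor of mTOR complex signaling, read 2.43 and 2.37 in Control, 4.11 on both BT474-Var1 arrays, and 2.87 and 2.85 in BT474-Var4 cells. As with ADM and P4HA1, BT474-Var4 lay between the other groups. DDIT4 was 3.26-fold higher in BT474-Var1 (1.70, SE 0.05, adjusted p = 0.00195) and 1.38-fold in BT474-Var4 (0.46, adjusted p = 0.0093), with a direct difference of -1.24 (adjusted p = 0.0012), and the BT474-Var4 call was lost without either Control array (adjusted p 0.0529 and 0.061).

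ANKRD37, a small ankyrin repeat protein, read 1.79 and 1.71 in Control, 3.40 and 3.36 in BT474-Var1 and 1.50 and 1.57 in BT474-Var4 cells. ANKRD37 in BT474-Var1 cells was 3.09-fold higher than in Control (1.63, SE 0.06, adjusted p = 0.00233), with a direct difference of -1.84 (adjusted p = 0.00118). Both BT474-Var4 values lay below Control, but the difference did not pass the test (-0.22, adjusted p = 0.065). MXI1, a repressor that competes with MYC for its partner MAX, read 1.35 and 1.28 in Control, 2.32 and 2.30 in BT474-Var1 and 0.96 and 1.08 in BT474-Var4 cells. MXI1 rose by 0.99 in BT474-Var1 (SE 0.07, adjusted p = 0.00355) and between the variants was 2.44-fold lower in BT474-Var4 (-1.29, adjusted p = 0.00133). MXI1 alone of the members was called lower in BT474-Var4 against Control (-0.30, adjusted p = 0.0403), a call lost without any 1 of the 6 arrays (adjusted p 0.07 to 0.163). For BT474-Var1 the other MXI1 probes gave 1.35 (adjusted p = 0.00305) and 0.09 (adjusted p = 0.458), and for BT474-Var4 they gave -0.26 (adjusted p = 0.072) and -0.63 (adjusted p = 0.0141).

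The remaining regulators changed less. INSIG2, which holds the SREBP pathway of sterol synthesis in check, was higher in BT474-Var1 by 0.54 (adjusted p = 0.0107), a call lost without BT474-Var1 A (adjusted p = 0.0536), and a second probe gave 0.53 (adjusted p = 0.00939). Its direct difference of -0.31 (adjusted p = 0.0352) was lost without any 1 of the BT474-Var1 or BT474-Var4 arrays (adjusted p 0.0962 to 0.127). ZNF395, a zinc finger transcription factor, was higher in BT474-Var1 by 0.53 (adjusted p = 0.00676) and differed by -0.69 (adjusted p = 0.00305) between the variants. RORA, a nuclear receptor, had its highest level in BT474-Var4 (0.65, adjusted p = 0.00583 against Control, and 0.41, adjusted p = 0.00794 against BT474-Var1), while its rise of 0.25 in BT474-Var1 (adjusted p = 0.0318) was lost without any 1 array (adjusted p 0.0516 to 0.136). WSB1, part of a ubiquitin ligase, passed no test (0.31, adjusted p = 0.0596, and 0.10, adjusted p = 0.451).

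Of the last 4 members, TMEM45A, FUT11 and RAB20 were higher in BT474-Var1 cells (75%, against 14.2% of all gene names). FUT11, a fucosyltransferase, read -1.10 and -1.03 in Control, 0.19 and -0.07 in BT474-Var1 and -1.08 and -1.21 in BT474-Var4 cells, a 2.18-fold difference of BT474-Var1 from Control (1.12, SE 0.11, adjusted p = 0.00533) and a direct difference of -1.20 (adjusted p = 0.0032). A dimmer FUT11 probe gave 0.26 (adjusted p = 0.481). TMEM45A, a membrane protein, read -3.73 and -3.27 in Control, -2.15 and -2.34 in BT474-Var1 and -3.58 and -3.20 in BT474-Var4 cells, with a wider spread than most members. Its log2 fold change of 1.26 in BT474-Var1 (2.39-fold, SE 0.21, adjusted p = 0.0155) was lost without Control A or either BT474-Var1 array (adjusted p 0.0558 to 0.071). The direct difference of -1.15 (adjusted p = 0.0162) was lost without either BT474-Var1 array or BT474-Var4 A (0.0546 to 0.0731). RAB20, a small GTPase of membrane traffic, was higher in both variants, by 0.66 (adjusted p = 0.00687) and 0.57 (adjusted p = 0.0135), the latter lost without Control A, Control B or BT474-Var4 B (adjusted p 0.0574 to 0.0732).

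PPFIA4, a liprin scaffold protein, gave different answers on its 2 probes. The brighter (chromosome 1, 203015057 to 203015376 in hg19) passed no test, at 0.78 for BT474-Var1 (adjusted p = 0.212) and 0.76 for BT474-Var4 (adjusted p = 0.245), whose arrays read -3.38 and -2.19. The other (203047602 to 203047661) read -3.75 and -4.78 in Control, -0.90 and -1.04 in BT474-Var1 and -4.40 and -4.51 in BT474-Var4 cells, and was well above background on 1 Control array, both BT474-Var1 arrays and no BT474-Var4 array. It passed the filter only through the BT474-Var1 arrays, so it had to differ. On that probe BT474-Var1 was at least 7.63-fold higher than BT474-Var4, and with 1 Control array below background no fold is given against Control.

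The genes that sense oxygen and control HIF were read beside the targets. In BT474-Var1 cells 6 of the 12 were higher (50%, against 14.2% of all gene names) and 2 lower (16.7%, against 20.7%). BHLHE40, a HIF-induced repressor also known as DEC1, rose by 3.24 in BT474-Var1 (SE 0.10, adjusted p = 0.00197) and by 0.75 in BT474-Var4 (adjusted p = 0.013). EGLN3, a HIF prolyl hydroxylase that is itself a target, rose by 1.41 (adjusted p = 0.00454) and CITED2, which competes with HIF for its coactivators, by 1.17 (adjusted p = 0.00244) in BT474-Var1. In BT474-Var4 against Control 2 were higher (16.7%, against 10.2%) and 1 lower (8.33%, against 14.6%). EPAS1, the alpha subunit HIF-2, rose by 0.80 (adjusted p = 0.00414) while EGLN2 fell by 0.34 (adjusted p = 0.0252). Between the variants 2 were higher (16.7%, against 20.9%) and 6 lower (50%, against 21%) in BT474-Var4, with BHLHE40 at -2.49 (adjusted p = 0.0012), EGLN3 at -1.83 (adjusted p = 0.00181) and EGLN2 at -1.10 (adjusted p = 0.00148). The RNA of HIF1A itself passed no test, at 0.13 for BT474-Var1 (adjusted p = 0.113) and -0.03 for BT474-Var4 (adjusted p = 0.686), and the arrays do not measure HIF protein, on which oxygen acts. HIF1A is named outside the rule for list genes and was chosen after its values were seen.

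**Figure D4:**
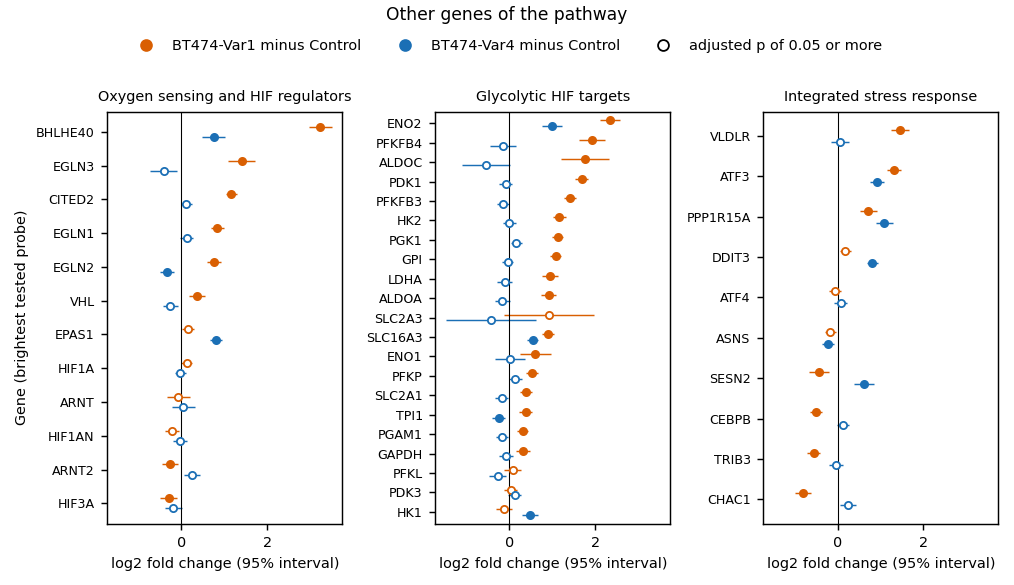
Log2 fold change against Control (x axis; bars are 95% intervals from limma) of the genes of 3 lists (y axis), in BT474-Var1 (orange) and BT474-Var4 cells (blue), with open points for an adjusted p of 0.05 or more. In BT474-Var1 cells 17 of 21 glycolytic genes were higher, as were 6 of 12 genes of oxygen sensing, while 3 of the 10 stress genes were higher and 4 lower.

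The glycolytic targets of HIF were higher in BT474-Var1 cells for 17 of 21 genes (81%, beside 14.2% of all gene names) and lower for 0 (limma), with a median of 0.92. ENO2, an enolase, rose by 2.35 (adjusted p = 0.00233), PFKFB4, which makes an activator of phosphofructokinase, by 1.92 (adjusted p = 0.00311) and ALDOC, an aldolase, by 1.76 (adjusted p = 0.00755). In BT474-Var4 against Control 3 were higher (ENO2 by 0.99, adjusted p = 0.00601; SLC16A3, a lactate exporter, by 0.54, adjusted p = 0.00693; HK1 by 0.48, adjusted p = 0.0159) and 1 lower, 14.3% and 4.76% against 10.2% and 14.6%, with a median of -0.09. Between the variants 18 were lower (85.7%, against 21%) and 1 higher (4.76%, against 20.9%) in BT474-Var4, led by ALDOC (-2.30, adjusted p = 0.00332), PFKFB4 (-2.07, adjusted p = 0.00143) and PDK1, which keeps pyruvate out of mitochondria (-1.77, adjusted p = 0.00118).

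DDIT4, VEGFA and STC2 can also be induced through the integrated stress response, so 10 genes of that response were set beside them. In BT474-Var1 cells 3 were higher (30%, against 14.2% of all gene names) and 4 lower (40%, against 20.7%), with a median of -0.12. VLDLR, a lipoprotein receptor, rose by 1.45 (adjusted p = 0.00304) and the transcription factor ATF3 by 1.31 (adjusted p = 0.00279), while CHAC1, a glutathione-degrading enzyme, fell by 0.80 (adjusted p = 0.0048). In BT474-Var4 against Control 4 were higher (40%, against 10.2%) and 1 lower (10%, against 14.6%), with PPP1R15A (1.09, adjusted p = 0.00418), ATF3 (0.93, adjusted p = 0.0041) and DDIT3 (0.81, adjusted p = 0.0038) leading. Between the variants 6 were higher (60%, against 20.9%) and 2 lower (20%, against 21%) in BT474-Var4, with VLDLR at -1.39 (adjusted p = 0.00155), SESN2 at 1.05 (adjusted p = 0.00271) and CHAC1 at 1.03 (adjusted p = 0.00198). The part of this response in the members' changes was not tested.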

How the data were processed

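RNA of 6 BT474 samples (2 each of Control, BT474-Var1 and BT474-Var4 cells) was hybridised to 1-color Agilent arrays on 1 slide with 1 scan time, and probe positions are given in hg19. The authors extracted spot intensities with Agilent Feature Extraction (11.5.1.1 in the submitters' processing notes). The processed signal is a background-subtracted intensity deposited per spot, beside flags for control spots, outliers and signal over background. A log2 table of the same arrays, deposited by the authors, shifted to the 75th percentile per their methods, matched each array (median difference up to 0.00716) and served as an alternative. Control spots and 63 to 128 outlier spots per array were left out and no spot was saturated. Log2 was taken of each spot, the spots of a probe were averaged and each array's 75th percentile was subtracted. Depth has no count here, so the number of arrays limits precision.

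Group means were fitted to all 6 arrays with limma 3.58.1 in R 4.3.3 (lmFit, eBayes; 3 residual and 1.53 prior degrees of freedom) on 31858 probes well above background on both arrays of a group, with Benjamini-Hochberg adjustment over them. The study's methods used a one-way analysis of variance, run here as an alternative. Where a group was not above background on either array, a fold is a bound, the mean of the brighter group against the dimmer group's mean of, per array, the higher of the dimmest well-above-background signal and the probe's own. The fit was tested on simulated data. The 32 members and the lists were chosen with earlier results of these data known. Values on each array are given for members past an adjusted p of 0.05 and 2-fold in a comparison, with their other probes, short forms otherwise, and from each list the 3 largest changes past the threshold per comparison. CA12, P4HA2, LOX and PPFIA4 are given in full although outside that rule, after their values were seen. Alternatives were normexp (offset 50), quantile normalization, other filters, the deposited table, other variance models, a replicate block, fewer samples and the mean over probes. The array design number in the file headers differs from that of the methods.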

Additional observations from a re-analysis of the deposited data

How the results depend on the processing

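With 2 arrays per group only large or very even differences pass. With every probe tested, 14 members were higher and 0 lower (1 at an unadjusted p under 0.05) in BT474-Var1 than in Control cells, against 2.55% and 2.32% of all gene names. In BT474-Var4 against Control 1 was higher and 0 lower (limma; 10 and 2 at an unadjusted p under 0.05; 0.845% and 0.522% of all gene names), and between the variants 2 were higher and 15 lower in BT474-Var4 (4.37% and 5.04% of all gene names). The cause was not tested. With 2-fold asked, the counts were 12 higher and 0 lower in BT474-Var1, 0 and 0 in BT474-Var4, and 0 higher and 12 lower in BT474-Var4 than in BT474-Var1, 11 of them with CA9 at its bound. Members lower in BT474-Var1 than in Control numbered 2 with normexp, against 26.9% of all gene names. Members lower in BT474-Var4 than in Control, 1 as reported, numbered 3 with normexp, against 20.6% of all gene names. With only probes above background on all 6 arrays they numbered 3 (against 19.5%), with a trended robust variance 5 (against 22.2%) and with the mean over probes 2 (against 15.4%). They numbered 0 with the replicate block (against 8.94%), the methods' analysis of variance (against 9.88%) and only the groups compared (against 9.91%). With the block, 3 were lower at an unadjusted p under 0.05.

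With the mean over probes KDM4B was reversed, to -0.25 in BT474-Var1 against Control and 0.091 between the variants. Leaving out 1 array gave 17 to 24 members higher and 0 to 1 lower in BT474-Var1, 3 to 10 higher and 0 to 0 lower in BT474-Var4, and 3 to 4 higher and 15 to 20 lower in BT474-Var4 than in BT474-Var1, where a lone array was assumed to vary like the other groups. With the replicate letters as a block, 22 members were higher in BT474-Var1 than in Control, against 11.8% of all gene names. In BT474-Var4 10 were higher than in Control, against 6.76%. Between the variants 4 were higher (against 17.4%) and 19 lower (against 18.3%) in BT474-Var4. The A minus B differences of the groups correlated at -0.0124 to 0.0452, so the letters were not taken as pairs. The normexp setting moved the BT474-Var1 median to 0.43 and that between the variants to -0.346.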
